A study of Mus musculus with 6 samples.

Results

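The 9 transcripts Igkc, Ighm, Ighg2c, Igha, Jchain, Mzb1, Cd79a, Cd79b and Ms4a1, which are used to recognise B cells and plasma cells, were followed in the mouse cerebral cortex, out of 55421 genes in the deposited files. They were taken by their symbols and were selected on earlier results of these same libraries, in which antibody transcripts were higher at 24 months. Their counts and fold changes between the ages are therefore given as a description, without a test. Bulk RNA-seq was done on the cortex of 6 male wild-type C57BL/6J mice on a standard diet, 3 of 6 months (mice 10, 11 and 17) and 3 of 24 months (mice 2, 4 and 5). All mice were put under isoflurane anesthesia before cervical dislocation, the brain was washed in buffered saline before dissection, and mice with visible tumors were not kept. Flushing of blood from the vessels and removal of the meninges are not mentioned in the sources used here. In such bulk samples, fewer cells of a type and less RNA per cell cannot be told apart.

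B cells carry a membrane-bound antibody on their surface, and plasma cells are their descendants that secrete antibody. An antibody consists of heavy chains (the constant genes Ighm for IgM, Ighg2c for an IgG and Igha for IgA) and light chains (Igkc for kappa, the Iglc genes for lambda). A working chain is only made once a V and a J segment, in heavy chains with a D segment between them, have been joined in front of the constant gene. In the healthy brain, B cells and plasma cells are rare and are known mainly from the meninges, the borders and the blood.

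Of the 9 members, 8 had at least 10 counts over the 6 libraries and entered the fit over all genes, and Mzb1, with 7 counts in all, did not. In 6 of the 8 (Igkc, Igha, Jchain, Cd79a, Cd79b and Ms4a1), all 24-month mice lay above all 6-month mice in CPM (counts scaled to the library total with edgeR's TMM factors), and in 0 they lay below. Over all 32905 genes tested, the ages were separated in this way upwards in 20.0% and downwards in 16.2%. The members were chosen by this same contrast, so nothing is read from their share. The differences between the ages were uneven. Igkc had the largest fitted fold change of the 8, whereas Ighm and Ighg2c, the members with the highest levels at 6 months, overlapped between the ages.

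The antibody sequences are shown here because the counts in them bear on whether rearranged antibody was sequenced. They are from GRCm38 with the GENCODE vM21 annotation and are written 5′ to 3′ on the strand of the gene. The constant exon of Igkc lies at chr6:70726435-70726966 (plus strand), just downstream of the J segments, and its first 90 bases are shown. Igkj5 (chr6:70723886-70723927, plus strand) is the J segment with the most counts at 24 months, and its conserved phenylalanine-glycine motif is in capitals. Igkv4-55 (chr6:69607275-69607828, minus strand) and Ighv1-53 (chr12:115158403-115158835, minus strand) are the kappa and heavy chain V segments with the most counts, and their last 120 bases are shown with the codon of the conserved cysteine in capitals. These 3 segments were chosen after their values were seen.
Igkv4-55: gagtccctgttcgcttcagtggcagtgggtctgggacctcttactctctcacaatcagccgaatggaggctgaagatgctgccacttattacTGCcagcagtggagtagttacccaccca
Igkj5: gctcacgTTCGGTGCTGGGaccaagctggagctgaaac
Igkc: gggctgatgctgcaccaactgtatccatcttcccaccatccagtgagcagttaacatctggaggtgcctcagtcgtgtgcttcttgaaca
Ighv1-53: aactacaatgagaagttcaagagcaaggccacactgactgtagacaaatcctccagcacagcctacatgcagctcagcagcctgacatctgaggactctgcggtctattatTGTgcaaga

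The libraries differed in a way that touches all members of few counts. Totals were 29495379 to 36494240 counts, yet 40208 to 43561 genes had at least 1 count at 24 months against 33974 to 35651 at 6 months. The 1545 olfactory, vomeronasal, taste and trace amine receptor genes were used here as a yardstick. They held 0.0223 to 0.0250 CPM per exonic kb at 6 months and 0.0532 to 0.0858 at 24 months. The ratio between the means was 2.95. The study reports that its up-regulated genes mainly belong to sensory perception, and it reads this as expression triggered by aging. Whether the reads on receptor genes are expression or background was not tested here. Of the 1271 such genes tested, 875 (68.8%) had all 24-month mice above all 6-month mice. For each member, the count that this density gives over its exonic length is set beside the measured count, and the part of this density in the results was not tested.

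**Figure D1:**
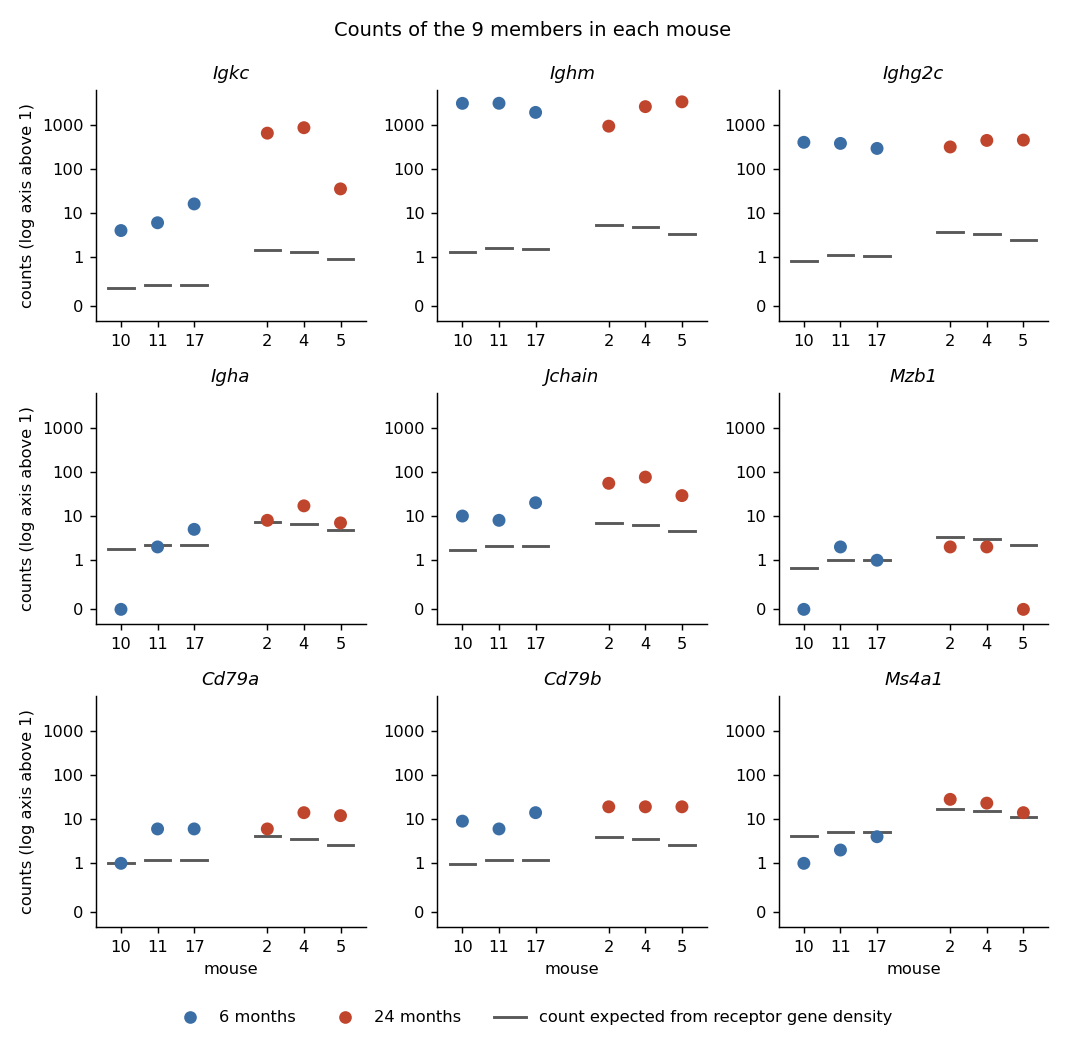
Counts of the 9 members in each mouse (symmetric log axis, linear below 1), with 6-month mice in blue, 24-month mice in red and the count expected from the receptor gene density as a dark bar. Igkc reached 638 and 848 counts in mice 2 and 4 and 35 in mouse 5, whereas Ighm stayed between 918 and 3262 counts in all 6 mice and Mzb1 never exceeded 2.

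Igkc, the constant gene of the kappa light chain, which most mouse antibodies use, was at 4, 6 and 16 counts in mice 10, 11 and 17 (6 months) against 638, 848 and 35 in mice 2, 4 and 5 (24 months), and values of single mice are given in this order throughout. Mice 2 and 4 thus stood far above all others, and mouse 5, with 35 counts, was nearer to the 16 counts of the highest 6-month mouse. In CPM the mean was 0.264 ± 0.196 (SD, n = 3) at 6 months and 15.1 ± 12.4 (SD, n = 3) at 24 months. The fitted log2 fold change was 5.81 ± 1.06 (SE), and it lay between 5.31 and 6.59 with each mouse left out in turn, the highest without mouse 17. The receptor gene density gave at most 1.48 counts over Igkc, so that the measured count was 431, 640 and 36.3 times the expected one in mice 2, 4 and 5. The annotated lincRNA Gm30211 spans Igkc on the same strand, and it had 9, 11 and 1 counts in these mice.

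Ighm (chr12:113418558-113422730, minus strand), the constant gene of IgM, had 3014, 3027 and 1880 counts in the younger mice against 918, 2539 and 3262 in the older ones. The ages overlapped, with mouse 2 the lowest of all, and the log2 fold change was -0.30 ± 0.36 (SE). Its sign depended on mouse 2, since it was 0.07 without that mouse. Ighg2c (chr12:113285325-113288932, minus strand) had 396, 374 and 288 counts in the younger mice against 311, 437 and 445 in the older ones, again with overlap and with a log2 fold change of 0.12 ± 0.17 (SE). The sign of this difference was also not stable, as it was -0.01 without the 6-month mouse 17. Both genes stood at least 84.3 times above the receptor gene density in every mouse.

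Levels between genes were compared in TPM, the deposited level per transcript length. At 6 months Ighm had 181, 165 and 107 TPM, while Igkc had 0.852, 1.16 and 3.24 TPM. The level of Ighm was thus 213, 142 and 33.1 times that of Igkc in the 6-month mice 10, 11 and 17. At 24 months Igkc had 141, 175 and 7.36 TPM, and the ratio of Ighm to Igkc was 0.406, 0.845 and 26.3 in mice 2, 4 and 5. Kappa light chain exceeded IgM heavy chain in mice 2 and 4 and was below it in the other 4, and the ratio in mouse 5 was near that of the 6-month mouse 17. Lambda light chains did not fill the gap at 6 months, because Iglc1, Iglc2 and Iglc3 together had 1, 1 and 3 counts there. Ighm and Ighg2c were thus present at 6 months with almost no light chain, and in mouse 5 they were 26.3 and 5.10 times Igkc. In these 4 mice the label of B cell and plasma cell transcripts was not matched by light chain for both genes. In mice 2 and 4 Igkc was high, but Ighm was not above its 6-month range. Which cells the Ighm and Ighg2c reads came from was not tested.

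**Figure D2:**
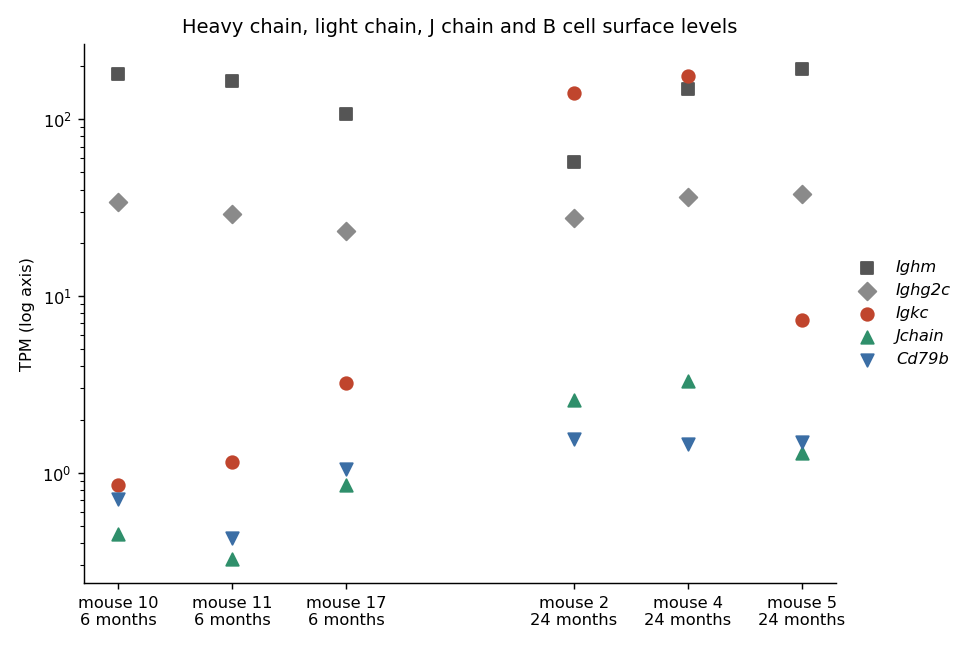
TPM (log axis) of Ighm, Ighg2c, Igkc, Jchain and Cd79b in each of the 6 mice. Ighm and Ighg2c lie within a similar band at both ages, whereas Igkc rises from between 0.852 and 3.24 TPM at 6 months to 141 and 175 TPM in mice 2 and 4, and to 7.36 TPM in mouse 5.

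The V segments gave a related picture. Heavy chain V segments (113 genes) together had 19, 27 and 23 counts at 6 months, below the 28.4, 34.4 and 33.9 counts that the receptor gene density gives over their length. At 24 months they had 159, 141 and 69 counts in mice 2, 4 and 5, against 115, 103 and 74.8 expected. For each 100 counts of Ighm there were 0.630, 0.892 and 1.22 heavy chain V counts in the younger mice against 17.3, 5.55 and 2.12 in the older ones. Ighv1-53, shown above, held 26 and 47 of these counts in mice 2 and 4, 0 in mouse 5 and 1 at 6 months. The 4 heavy chain J segments, unlike the V segments, were read above the receptor gene density in every mouse. The younger mice had 8, 8 and 11 such reads, 45.6, 37.7 and 52.6 times the expected number. The older mice had 14, 18 and 12, which is 19.7, 28.3 and 26.0 times. At most 0.710 were expected in any mouse. Whether these J reads came from rearranged chains was not tested.

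The kappa V segment Igkv4-55 had 211, 251 and 6 counts in mice 2, 4 and 5 and 1 count in the 6-month mice together. It held 59.4% (95% Wilson interval 54.3 to 64.4) of all kappa V counts in mouse 2 and 63.2% (58.4 to 67.8) in mouse 4, and Igkj5 had 13 and 21 counts in these mice and 0 in all others. Igkv4-53, with 4 and 11 counts, was also read in both mice. Some segments were found in 1 of them. Igkv16-104 and Igkv19-93 had 15 and 18 counts in mouse 2 and 0 in mouse 4, while Igkv10-96 had 12 counts in mouse 4 and 0 in mouse 2. V segments resemble each other, and the closest relative of Igkv4-55 among 99 annotated kappa V transcripts, Igkv4-70, was 93.0% identical and had 8 counts in mouse 2 and 0 in mice 4 and 5. The stated counting options divide reads with several positions among them, but the deposited counts are whole numbers and how they were rounded is not stated, so the split between such relatives is uncertain.

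The lambda constant genes differed between the mice in another way. Kappa made up 97.6% (95% Wilson interval 96.1 to 98.5) of light chain constant counts in mouse 2, 92.9% (91.0 to 94.4) in mouse 4 and 77.8% (63.7 to 87.5) in mouse 5. Mouse 4 was the lowest of the mice with high Igkc because Iglc1 had 48 counts there against 2 and 4 in mice 2 and 5. The lambda V segment Iglv1 followed it, with 47 counts in mouse 4 and 5 and 0 in mice 2 and 5. These intervals cover counting error only.

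Igha (chr12:113254830-113260236, minus strand), the constant gene of the mucosal antibody IgA, had 0, 2 and 5 counts in the younger mice against 8, 17 and 7 in the older ones. The ages did not overlap, but relative to the receptor gene density they did, with 0, 0.901 and 2.28 times the expected count at 6 months and 1.08, 2.56 and 1.45 times at 24 months. The log2 fold change was 2.09 ± 0.73 (SE), and it was 3.22 without the 6-month mouse 17. The 4 classes Igha, Ighg1, Ighg2b and Ighg3 had 9, 12 and 9 counts in the younger mice against 36, 38 and 26 in the older ones, which is 1.05 to 1.38 and 1.24 to 1.46 times the count expected from the receptor gene density.

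Jchain (chr5:88519809-88527891, minus strand) encodes the J chain, which joins antibodies into polymers and is made by antibody-secreting cells. It had 10, 8 and 20 counts in the younger mice against 55, 76 and 29 in the older ones, with mice 2 and 4 highest, as for Igkc. The log2 fold change was 2.02 ± 0.43 (SE), between 1.75 and 2.50 with 1 mouse left out. The measured counts were 6.36 to 12.1 times the expected ones at 24 months and 3.82 to 9.69 times at 6 months. These ratios overlapped between the ages, but they divide by a density that was itself higher at 24 months. A gene of unchanged level would thus have a lower ratio at 24 months. The expected counts of Jchain were at most 2.09 at 6 months and 4.56 to 7.005 at 24 months. Mzb1 (chr18:35647267-35649367, minus strand), a chaperone of the endoplasmic reticulum that aids antibody assembly in plasma cells and marginal zone B cells, had 0, 2 and 1 counts in the younger mice against 2, 2 and 0 in the older ones. No change was detectable for Mzb1 at this depth, since each library was under the limit of 3 counts, and no fold is given.

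The B cell surface genes were low in all mice. Cd79a (chr7:24897381-24902197, plus strand), a signaling chain of the B cell receptor, had 1, 6 and 6 counts in the younger mice against 6, 14 and 12 in the older ones. The separation of its ages was marginal, as mouse 2 had 0.185 CPM and the 6-month mouse 17 had 0.183. Its partner Cd79b (chr11:106311341-106314762, minus strand) had 9, 6 and 14 counts at 6 months and 19 in each 24-month mouse, a log2 fold change of 0.92 ± 0.37 (SE). Relative to the receptor gene density Cd79b was 5.04 to 11.9 times the expected count at 6 months and 4.77 to 7.33 times at 24 months. As for Jchain, these ratios divide by a density that was higher at 24 months. The expected counts of Cd79b were at most 1.19 at 6 months and 2.59 to 3.98 at 24 months.

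Ms4a1 (chr19:11249675-11266241, minus strand) encodes CD20, which is found on B cells and is lost in plasma cells. It had 1, 2 and 4 counts in the younger mice against 28, 23 and 14 in the older ones, a log2 fold change of 3.11 ± 0.52 (SE), which was 3.71 without mouse 17. The gene has a long exonic sequence, over which the receptor gene density gave 17.2, 15.4 and 11.2 counts in mice 2, 4 and 5. The measured counts were thus 1.25 to 1.63 times the expected ones at 24 months and 0.235 to 0.788 times at 6 months. An antisense gene, 4930526L06Rik, overlaps Ms4a1 and had at most 3 counts in any mouse, and the counting did not use strand.

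The antibody and assembly members were then set against the surface members. The summed level of Igkc, Ighm, Ighg2c, Igha, Jchain and Mzb1 was 92.5 ± 22.5 CPM (SD, n = 3) at 6 months and 94.6 ± 30.4 (SD, n = 3) at 24 months, a log2 ratio of 0.03 that is smaller than the spread between mice. Ighm and Ighg2c held 98.1 to 99.6% of this sum at 6 months and 63.6, 75.9 and 98.1% in mice 2, 4 and 5. Without these 2 genes, a choice made after seeing the data, the sum was 0.753 ± 0.460 CPM (SD, n = 3) at 6 months and 21.7, 27.3 and 2.09 CPM in mice 2, 4 and 5, a log2 ratio of 4.50. The surface sum of Cd79a, Cd79b and Ms4a1 was 0.498 ± 0.204 CPM (SD, n = 3) at 6 months and 1.52 ± 0.175 (SD, n = 3) at 24 months. This is 3.06-fold, a log2 ratio of 1.61, beside the ratio of 2.95 in the receptor gene density on the same scale. In an alternative added after seeing the data, that density was subtracted from each count and negative values were set to 0. The log2 ratio of the surface sum was then 1.31. Ms4a1, below its expected count in all 6-month mice, was thereby set to 0 there.

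The surface sum was nearly the same in the 3 mice of 24 months, at 1.63, 1.62 and 1.32 CPM, whereas Igkc differed widely among them. Per TPM of surface members, Igkc had 54.7, 59.9 and 2.77 TPM in mice 2, 4 and 5 and 1.05, 1.31 and 2.07 TPM in the 6-month mice. For Jchain the corresponding values were 0.997, 1.13 and 0.485 at 24 months and 0.557, 0.368 and 0.546 at 6 months, so that mouse 5 lay among the 6-month mice. Mouse 5 was thus close to the 6-month mice in its ratios of light chain and J chain to surface genes, while its surface sum was above all 6-month mice.

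Further B lineage genes, which are not members, went through the quasi-likelihood test of edgeR, with Benjamini-Hochberg adjustment over all genes. Of 44 genes (other antibody constants, plasma cell genes and B cell genes), 43 were tested and 0 passed 1% FDR, and over all genes 0.00% passed. At an unadjusted p under 0.05, 16 of the 43 were higher at 24 months and 4 were lower, where 17.6% of all genes were higher and 13.1% lower. These are 37.2% and 9.30% of the list. At 10% FDR 7 were higher and 4 lower, against 10.0% and 8.33% of all genes. With 1 mouse left out, 9 (without mouse 4) to 16 genes were higher and 3 or 4 lower, and 0 passed 10% FDR without mouse 10, 11, 2 or 4. When libraries were scaled by their totals alone, which raised the median log2 fold change of all genes by 0.19, 24 were higher and 2 lower, and over all genes 89.8% of those at p under 0.05 were higher in place of 57.3%. None of the 20 genes changed direction with library totals or with DESeq2 size factors. The median log2 fold change of the list was 0.65, or 0.62 with Iglc3, at 0 in all 6-month mice, set to its lower bound, and that of all genes was 0.15, or 0.14 with such genes at their bounds.

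Among the other antibody constant genes, 5 of the 7 tested were higher at an unadjusted p under 0.05 and 0 were lower, with 3 higher without mouse 17 or mouse 4. Over all genes 17.6% were higher and 13.1% lower. Iglc3, a lambda constant gene, had 0 counts in all 6-month mice and 5, 7 and 2 at 24 months (quasi-likelihood test, adjusted p = 0.0615). Iglc2 had 1, 0 and 2 counts and then 9, 10 and 4 (adjusted p = 0.0660). Its ratio, from counts pooled over the mice of each age, was 7.44 with a counting interval of 2.25 to 38.7. Such intervals leave out variation between mice. Iglc1 had a ratio of 26.2 with an interval of 6.91 to 222, but this rested on mouse 4 (adjusted p = 0.0825). Iglc2 and Iglc3 are close copies, and the split of reads between them is uncertain. Ighg3, an IgG constant gene, had 0, 3 and 0 counts and then 5, 11 and 3 (adjusted p = 0.122), a ratio of 6.15 with an interval of 1.81 to 32.4 and near the 4.55 to 6.99 counts expected from the receptor gene density.

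B cell genes were more often higher than lower: 8 of 20 were higher at an unadjusted p under 0.05 and 1 was lower, with a median log2 fold change of 0.65. These are 40% and 5% of the list, where 17.6% of all genes were higher and 13.1% lower. Of the 8, 4 had less than 2 times the counts expected from the receptor gene density over the 24-month mice. Without mouse 10 or mouse 4, 5 were higher. Spib, a transcription factor of B cells, had 2, 3 and 4 counts and then 14, 11 and 12 (log2 fold change 1.96 ± 0.45, SE; adjusted p = 0.0540). Cd22, an inhibitory receptor of B cells, had 7, 15 and 4 counts and then 39, 23 and 23 (log2 fold change 1.67 ± 0.45, SE; adjusted p = 0.0617). Fcrla, an Fc receptor-like protein of B cells, had 3 counts in all at 6 months and 22 at 24 months (adjusted p = 0.0695), a ratio of 7.12 with a counting interval of 2.14 to 37.1. At 24 months Spib was 1.54 to 2.31, Cd22 1.83 to 2.78 and Fcrla 1.03 to 2.76 times the count expected from the receptor gene density. At 6 months they were 1.01 to 1.70, 0.967 to 3.58 and 0 to 1.38 times that count.

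Pax5, the factor that fixes B cell identity, did not pass an unadjusted p of 0.05. It had 6, 7 and 9 counts in the younger mice against 18, 19 and 7 in the older ones (adjusted p = 0.186), in each 24-month mouse below the 24.6, 22.1 and 16.0 counts expected from the receptor gene density. Of the 16 genes of the wider list that were higher, 7 had less than 2 times the counts expected from that density over the 24-month mice. Spib, Fcrla and Ighg3 were among these 7. The other 9 included Cd22, Cd72, Fcrl1, Ighd, Iglc1, Iglc2, Iglc3 and Tnfrsf13b.

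Of the 16 plasma cell genes, 3 were higher and 3 lower at an unadjusted p under 0.05, 18.8% each way and thus close to the 17.6% and 13.1% of all genes, and the median log2 fold change was 0.02. The higher genes numbered 0 without mouse 2, 1 without mouse 4 or mouse 17 and 5 without mouse 5, and the lower ones 2 or 3 in each case. Xbp1, the transcription factor of the secretory program, which many other cells also use, had 7562, 9606 and 8353 counts and then 6945, 7112 and 5950 (log2 fold change -0.39 ± 0.10, SE; adjusted p = 0.0611). Derl3, which serves degradation at the endoplasmic reticulum, had a log2 fold change of -0.98 ± 0.29 (SE; adjusted p = 0.0713), and Cd38, an ectoenzyme present on many cell types, one of -0.52 ± 0.18 (SE; adjusted p = 0.0928). Tnfrsf13b, the receptor TACI for survival factors of B cells, had 51, 54 and 73 counts and then 92, 91 and 81 (log2 fold change 0.53 ± 0.20, SE; adjusted p = 0.117). The other higher genes were Slamf7 and Pou2af1. Slamf7 had 6, 5 and 1 counts and then 14, 10 and 8, and Pou2af1 had 1, 5 and 2 and then 11, 14 and 3. At 24 months they were 0.877 to 1.10 and 0.650 to 2.21 times the count expected from the receptor gene density.

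The genes that most define plasma cells did not pass an unadjusted p of 0.05. Sdc1, which encodes the plasma cell marker CD138 and is also made by other cells, had 29, 39 and 38 counts and then 22, 51 and 25 (log2 fold change -0.16 ± 0.32, SE). Prdm1, the master factor of plasma cells, had 13, 23 and 19 counts and then 35, 21 and 21 (0.45 ± 0.33, SE). Tnfrsf17, the receptor BCMA that long-lived plasma cells depend on, had 9, 6 and 6 counts and then 7, 3 and 9 (-0.19 ± 0.51, SE). In mice 2 and 4, which had the most Igkc, these 3 genes were thus not raised together. Others of the list went either way there. Pou2af1 and Irf4 were highest in these mice, Irf4 with 11, 12 and 15 counts and then 23, 25 and 14. Xbp1, Derl3 and Cd38 were below all 6-month mice in CPM.

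**Figure D3:**
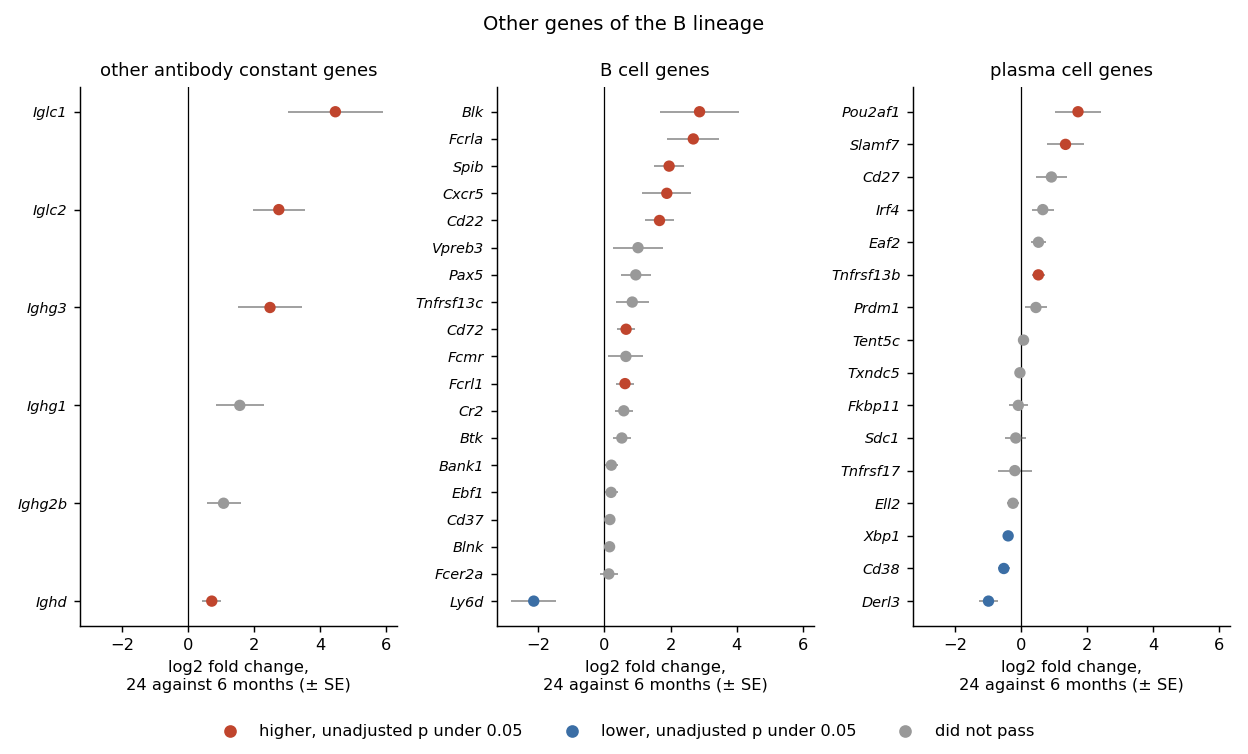
Log2 fold change (24 against 6 months) with its SE for most of the other antibody constant, B cell and plasma cell genes tested. Iglc3, at 0 in all 6-month mice, is not drawn. Red points were higher and blue points lower by an unadjusted p under 0.05 of the same quasi-likelihood fit, and every B cell gene drawn except Ly6d, but 8 of the 16 plasma cell genes, were fitted above 0.

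Factors that attract B lineage cells or keep them alive were also read. Of 16 such genes 14 were tested, and 5 were higher (3 without mouse 17) and 0 lower at an unadjusted p under 0.05. The 5 are 35.7% of those tested, where 17.6% of all genes were higher and 13.1% lower. Cxcl13, the chemokine that draws B cells through Cxcr5, had 2, 0 and 2 counts in the younger mice against 27, 23 and 4 in the older ones (quasi-likelihood test, log2 fold change 3.60 ± 0.89, SE; adjusted p = 0.0561). It was highest in the mice with the most Igkc. The study names Cxcl13 from these libraries, so its values here are not independent evidence of the direction. The study also reports higher Cxcl13 by quantitative PCR on further cortex samples of both sexes, which were not examined here. Ccr9, a gut homing receptor, had a log2 fold change of 1.05 ± 0.27 (SE; adjusted p = 0.0589), with counts of 34, 50 and 40 against 28.6, 25.6 and 18.6 expected from the receptor gene density. Il6, a cytokine that supports plasma cells, had 2, 7 and 8 counts and then 31, 14 and 12 (adjusted p = 0.0825). Itgb7, an integrin chain of gut-homing cells, had 13, 13 and 11 counts and then 24, 19 and 27 (adjusted p = 0.0930). Tnfsf13b, the survival factor BAFF, did not pass, with 63, 50 and 54 counts and then 65, 76 and 91 (adjusted p = 0.200).

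Markers of other cells that a cortex sample could bring along were set beside Igkc. The summed level of red blood cell genes was 77.0 to 98.4 CPM at 6 months and 57.0, 76.5 and 80.1 CPM in mice 2, 4 and 5, so that mouse 2, with 638 counts of Igkc, had the least. Of the 5 red cell genes 3 were lower at 24 months at an unadjusted p under 0.05 and 0 were higher. Over all genes 13.1% were lower and 17.6% higher. The meningeal sum was 46.7 to 117 CPM at 6 months and 46.0, 126 and 61.3 CPM in mice 2, 4 and 5. It was thus lowest of all in mouse 2 and highest of all in mouse 4, while both had Igkc far above the rest. Choroid plexus genes summed to 18.1 to 45.1 CPM at 6 months and 43.6, 44.9 and 21.8 CPM in mice 2, 4 and 5, which is the order of mouse 5 below mice 2 and 4 that Igkc also showed, but the 6-month mouse 10, with 4 counts of Igkc, had 45.1 CPM. Of these genes 3 of 8 were higher and 0 lower. At 24 months Slc4a5 and Otx2 had 0.666 to 1.19 times the count expected from the receptor gene density, and Prlr 2.11 to 2.59 times.

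Among other leukocytes, 5 of 10 T cell genes were higher and 0 lower at an unadjusted p under 0.05. Over all genes 17.6% were higher and 13.1% lower. Of the 5, Cd3d, Cd3g, Cd247 and Cd8a had 0.593 to 1.97 times the count expected from the receptor gene density at 24 months. Cd8b1 had 2.17 to 2.91 times that count. The T cell sum was 21.7 to 25.7 CPM at 6 months and 20.4 to 23.3 CPM at 24 months. Most of that sum was Trbc2, a T cell receptor constant gene, with 603 to 655 counts at 6 months and 513 to 618 at 24 months. The chains of CD3, which define T cells, had 0 to 16 counts each. Neutrophil genes (0 of 6 higher or lower) summed to 2.30 to 3.24 CPM at 6 months and to 1.33, 4.34 and 4.64 CPM in mice 2, 4 and 5, with S100a9 at 0 in mouse 2. Border macrophage genes (0 of 8) summed to 10.8 to 17.4 and 10.4 to 20.9 CPM. Endothelial genes (0 of 7) summed to 148 to 165 CPM at 6 months and 103 to 192 CPM at 24 months. Of the 8 microglia genes 1 was higher and 1 lower, and of the 10 neuron genes, whose sum identified the tissue with 8079 to 11977 CPM, 6 were lower and 0 higher. All 3 of the proliferation genes that passed, of 4, were higher, with 1.24 to 1.96 times the expected count at 24 months. The part of these cells in the antibody transcripts was not tested.

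**Figure D4:**
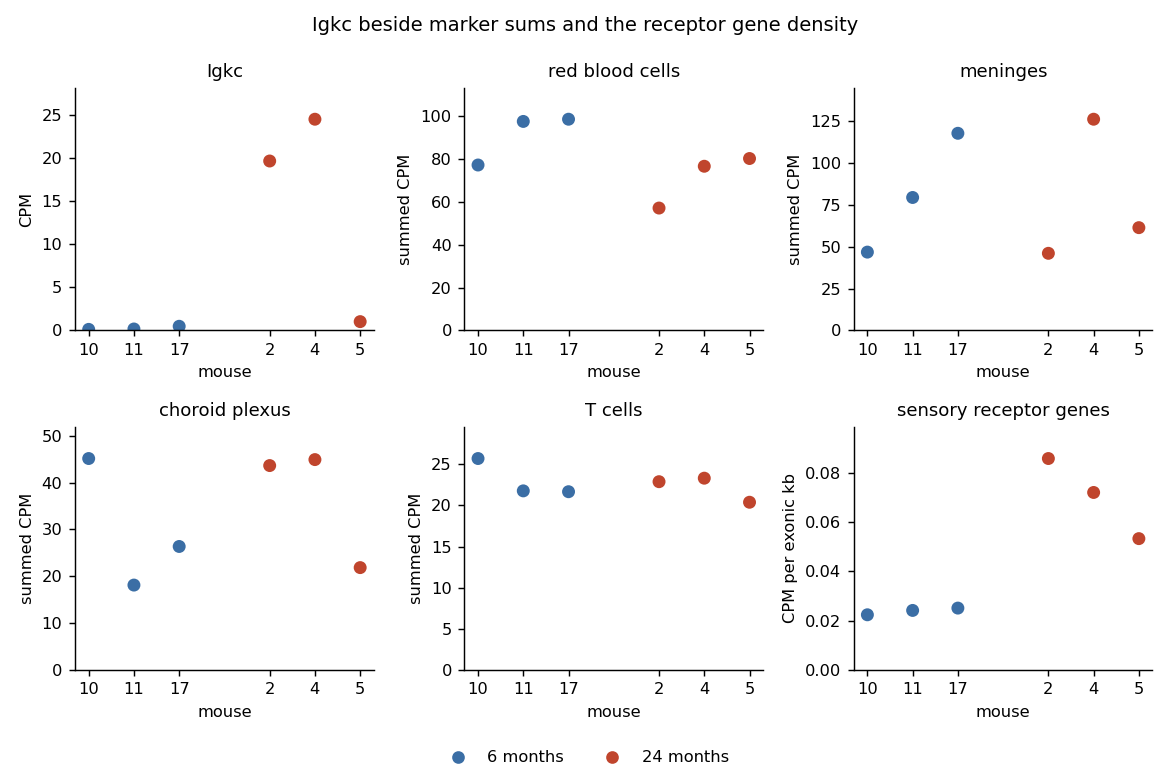
CPM of Igkc, summed CPM of marker lists of red blood cells, meninges, choroid plexus and T cells, and CPM per exonic kb of sensory receptor genes, in each mouse (6 months blue, 24 months red, all axes from 0). Mice 2 and 4 share high Igkc (19.7 and 24.5 CPM) but differ in the meningeal sum (46.0 and 126 CPM), and mouse 2 has the lowest red cell sum, 57.0 CPM.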

How the data were processed

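Per the labels and the study's methods, libraries were made from 10 ng of total RNA of each cortex with a low-input kit and sequenced as 75-base reads. The authors trimmed them (Trim Galore 0.6.4), mapped them to GRCm38 with STAR 2.7.3a and counted reads on exons with featureCounts (Subread 2.0.0), without strand and with reads of several positions included. The deposited counts are whole numbers, although the stated options would give fractions for reads of several positions, and the rounding is not stated. TPM, also deposited by the authors, divides counts by exonic length. Antibody genes resemble each other and rearranged or mutated reads may not map, which can lower or shift their counts.

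The members and gene lists were chosen with earlier results of these data known. Counts were tested with the quasi-likelihood test of edgeR 4.0.16 in R 4.3.3, after TMM scaling, for genes whose 6 libraries summed to 10 counts or more, and p-values were adjusted by Benjamini-Hochberg. Genes named from the lists, a few of which are left unreported, are the 4 of smallest p, and Pax5, Sdc1, Prdm1, Xbp1, Tnfrsf17, Cxcl13 and Tnfsf13b. Pou2af1, Slamf7 and Irf4 were added after the values were seen. Intervals of shares are Wilson intervals and those of ratios are exact, at 95%. The ratios pool the counts of the mice of each age, so their intervals cover counting error only. Alternatives were other tests (likelihood ratio, exact, DESeq2 1.42.0), scalings, filters, TPM, and each mouse left out. Positions are from GENCODE vM21, in which 55240 of 55421 identifiers were found.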

Additional observations from a re-analysis of the deposited data

How the results depend on the processing

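No paired analysis was possible because the ages share no replicate numbers. Over all genes, 0 passed 1% FDR in edgeR's quasi-likelihood test (10096 had an unadjusted p under 0.05), against 6041 at 10% FDR, 1703 with the likelihood ratio test, 1122 with the exact test, 278 with the Wald test of DESeq2 and 42 without a filter on low counts. With 1 mouse left out, 0 to 13 genes passed, the most without the 24-month mouse 5. Of the wider B lineage genes 0 passed 1% FDR in the quasi-likelihood test (20 had an unadjusted p under 0.05), against 11 at 10% FDR, 7 with the likelihood ratio test (6 higher, among them Cd22, Spib, Iglc1, Iglc2 and Iglc3, and Ly6d lower), 2 with the exact test (Spib among them) and 0 with DESeq2. It stayed at 0 with each mouse left out. The cause of these differences between tests was not tested.

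The log2 ratio of the antibody and assembly sum, 0.03, was 0.61 in TPM, which weights the short Igkc more, and 4.50 without Ighm and Ighg2c. With 1 mouse left out it ran from -0.15 to 0.28. That of the surface sum, 1.61, ran from 1.42 to 2.00. After subtracting the receptor gene density with negative values set to 0, an alternative added after seeing the data, the values were 0.03 and 1.31. Of 72 alternative values of the members' fold changes, 70 moved by less than the spread between mice, and the other 2, Igha (3.22) and Ms4a1 (3.71), were both without the 6-month mouse 17. Among the 70, 2 changed sign, 1 of Ighm and 1 of Ighg2c. With 29495379 to 36494240 counts per mouse, members of under about 20 counts are limited by counting error.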

Other observations

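The genes most like Igkc over the 6 libraries, on log2 CPM and outside the antibody loci, were Olfr142, Olfr1447, Olfr933, Mrln and Vmn2r6, with Pearson r of 0.995 to 0.998. They had 1 to 4 counts in the 6-month mice and 3 to 20 at 24 months, and 4 of the 5 are sensory receptor genes. The r values were taken over both ages together, and the receptor gene density also differed between the ages. The values rest on few counts.

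Among the members, Jchain (r = 0.96) and Ms4a1 (r = 0.94) followed Igkc most closely over the same libraries, whereas Ighg2c (r = -0.05) and Ighm (r = -0.63) did not. These r values also pool both ages, and the members were chosen by the contrast between the ages. Whether members vary with Igkc within an age was not tested. Genes most like Ighm, chosen after the values were seen, included Hlf, a transcription factor of circadian output (r above 0.99), Zfp810, Adssl1 and Relt. Hlf had 4737, 5171 and 4322 counts in the younger mice against 3519, 4874 and 5145 in the older ones, with mouse 2 lowest and overlap between the ages, as for Ighm.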
